A study of Mus musculus with 10 samples.

Results

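Immediate early genes are genes that a neuron transcribes soon after synaptic input, without waiting for new protein synthesis. The 10 activity-induced members described here are Fos, Fosb, Junb, Egr1, Egr2, Egr4, Arc, Npas4, Nr4a1 and Ier2. They were chosen by name, and each gene probe whose RefSeq accession belonged to one of these symbols was taken. This gave 12 probes, of 39142 probes and 17597 named genes that could be tested. Fosb and Junb had 2 probes each and the other 8 genes had 1.

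The arrays addressed how overexpression of the transcriptional coactivator PGC-1α in neurons alters hippocampal gene expression in the absence of cerebral hypoperfusion. Whole hippocampus was taken from 5 nPGC-1α samples and 5 PGC-1αf/f samples, and RNA from each was hybridised in 1 colour (Cy3). PGC-1αf/f mice, the controls, carry a PGC-1α transgene in the Rosa26 locus behind a floxed PGK-neo-STOP cassette, so that it stays silent. The nPGC-1α mice carry the same transgene together with Eno2-Cre, a recombinase driven by the promoter of a gene active in neurons throughout the nervous system, so that recombination is not limited to the hippocampus. All animals had a C57BL/6 background and were labelled as male and 12 weeks old. Control arrays 1 to 5 below are PGC-1αf/f replicates 1 to 5. The labels number the samples within each group but name no animals, so the p-values measure the spread between these samples.

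The level of a probe is given as log2 of its background-corrected signal minus log2 of the 75th percentile of that signal on the array, so that 0 is the 75th percentile of the array and a difference of 1 is a doubling. The 75th percentile lay between 3883 and 5253 signal units. The control arrays had 74.5% to 81.5% of probes well above background, and the nPGC-1α arrays had 67.2% to 73.4%. The noise value of the arrays was 5.16 to 8.98 in controls and 10.71 to 20.87 in nPGC-1α, also without overlap. On the first slide, with replicates 1 to 4, all controls lay in row 1 and all nPGC-1α arrays in row 2. Group and row cannot be told apart there, and the part of position or noise in the differences below was not tested. On the second slide, with replicate 5 of each group, both arrays lay in row 1. The labels were not borne out at a pair of points. Ppargc1a, the gene encoding PGC-1α, stood at 2.13 to 2.34 in PGC-1αf/f and at 2.06 to 2.31 in nPGC-1α on its tested probe. The difference there was 0.00 (limma adjusted p 0.99). Its other probe, at 0.87 to 1.15 and 0.99 to 1.43, was not tested and had outlier spots on 5 arrays. Whether either probe reads the transgene is not known. The paper reports more PGC-1α in nPGC-1α mice by Western blot, and the fluorescent marker eGFP in their neurons. It does not say that these samples were used. Within the arrays, each direction below rests on the labels alone. Of 7 probes of Y-linked transcripts, 6 were well above background on each of 4 arrays (nPGC-1α replicates 1, 3 and 5, and control array 1). On control array 2 it was 1 probe and on the others 0, although all samples were labelled as male. The 4 are called arrays with Y-linked transcripts below, and the remaining 6 arrays that lacked them. The samples were also labelled as neurons, but the 8 astrocyte and 8 oligodendrocyte markers examined stood well above background on each of the 10 arrays. The same held for the 8 markers of the dentate gyrus, 7 of CA1 and 7 of CA3, the subfields of the hippocampus. It also held for the 8 tested markers each of neocortex, thalamus, endothelial cells and choroid plexus, and for 6 of 7 striatum markers. Detection by this rule therefore does not tell which region or cell type was sampled. On control array 1, 10.5% of gene spots were marked as outliers, and on nPGC-1α replicate 1, 11.6%. No spot of the 12 member probes was marked as an outlier on any array.

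In a neuron, calcium entering through NMDA receptors and voltage-gated channels activates CaM kinases and other kinases, which act on the transcription factors CREB, SRF and its partner ELK1, and MEF2 that already sit at these genes. Most of the products are transcription factors. FOS, FOSB and JUNB pair within the AP-1 family, EGR1, EGR2 and EGR4 are zinc finger proteins, NPAS4 is a bHLH-PAS factor induced by calcium, and NR4A1 is an orphan nuclear receptor. ARC acts at the synapse instead, where it promotes the removal of AMPA receptors. In the hippocampus these transcripts are used as a record of recent activity, since they appear and decay rapidly.

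Promoter windows from RefSeq on build GRCm38.p6, each 300 bases long with 250 bases before the start site, were found for 7 of the 10 genes (Fos, Fosb, Junb, Egr2, Egr4, Npas4 and Nr4a1). Each of the 7 held TGACG, the short form of the CREB recognition letters, on either strand, which 20.8% of all 32851 windows hold. Counts are by gene and shares by window, and Egr2 has 5 windows, of which 3 hold it, while the other 6 genes have 1 window each. The full palindrome TGACGTCA was in 0 of the 7 (1.79% of all windows). The CArG box, the recognition element of SRF, was in 1, Egr2 (1.63%). The TATA letters TATAAA, searched on both strands, were in 2, Fos and Junb (13.6%). The EGR recognition letters GCGNGGGCG were in 2, Fosb and Nr4a1 (5.55%), and the AP-1 letters TGANTCA in 0 (7.81%). TGACG lies within the full palindrome, and no other motif searched here contains another. The 250 bases upstream of the start site are shown for Fos, Egr4, Nr4a1 and Junb. Across the 10 arrays Fos, Egr4 and Nr4a1 had r of 0.81 to 0.94 with each other, and Junb had r of 0.03 to 0.30 with them. Without control array 1 the values were 0.62 to 0.89 among the former and 0.46 to 0.65 for Junb with them. The bases are given 5′ to 3′ on the strand of the gene, with the motifs above in capitals. The windows are chr12:85473640-85473889 (plus strand) for Fos, chr6:85513590-85513839 (minus strand) for Egr4, chr15:101266596-101266845 (plus strand) for Nr4a1 and chr8:84978749-84978998 (minus strand) for Junb.
Fos: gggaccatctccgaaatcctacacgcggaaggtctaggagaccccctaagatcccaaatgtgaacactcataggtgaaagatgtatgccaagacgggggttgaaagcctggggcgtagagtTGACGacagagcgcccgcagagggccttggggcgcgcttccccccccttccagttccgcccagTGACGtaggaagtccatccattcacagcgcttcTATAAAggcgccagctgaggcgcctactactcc
Egr4: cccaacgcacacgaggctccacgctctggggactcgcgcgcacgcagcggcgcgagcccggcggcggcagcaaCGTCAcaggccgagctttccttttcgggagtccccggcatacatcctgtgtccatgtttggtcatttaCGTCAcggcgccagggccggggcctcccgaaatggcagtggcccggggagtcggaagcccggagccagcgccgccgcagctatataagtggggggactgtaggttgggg
Nr4a1: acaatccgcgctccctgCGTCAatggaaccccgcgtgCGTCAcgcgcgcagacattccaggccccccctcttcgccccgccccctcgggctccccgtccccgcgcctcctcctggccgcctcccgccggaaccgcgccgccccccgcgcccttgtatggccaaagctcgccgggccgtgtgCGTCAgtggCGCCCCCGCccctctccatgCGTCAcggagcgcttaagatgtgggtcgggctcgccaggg
Junb: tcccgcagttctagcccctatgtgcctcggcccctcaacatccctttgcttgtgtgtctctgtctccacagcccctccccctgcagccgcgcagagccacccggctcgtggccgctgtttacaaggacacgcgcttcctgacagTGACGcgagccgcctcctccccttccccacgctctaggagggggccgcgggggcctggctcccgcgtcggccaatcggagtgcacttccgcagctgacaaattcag
In the Fos window, TGACG began 129 and 66 bases before the start site and TATAAA 33 bases before it. In Egr4, TGACG began 177 and 109 bases before the start, both on the opposite strand. Nr4a1 held 4 copies, and the single copy of Junb began 106 bases before the annotated start, while its TATAAA begins at that start and lies beyond the bases shown. The letters are a description of these windows and do not show that a factor was bound.

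The groups overlapped for each of the 3 AP-1 genes, and Fos and Fosb were lowest on control array 1. Fos, which encodes the best known partner of JUN proteins, stood at -2.03, -0.62, -0.67, -0.06 and -0.52 on control arrays 1 to 5 and at -0.19, -0.36, -0.48, -0.27 and 0.17 on nPGC-1α replicates 1 to 5. Control array 1 was far below the other 9 arrays, and the groups overlapped. The mean difference, nPGC-1α minus PGC-1αf/f, was 0.56 (SE 0.31, 95% interval -0.12 to 1.23, 1.47-fold, n = 5 and 5, limma adjusted p 0.50), and without control array 1 it was 0.24 (95% interval -0.12 to 0.61). In bulk tissue such as this, fewer cells of a type and less RNA per cell cannot be told apart.

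Fosb, a relative of Fos, stood at -1.18, -0.80, -0.73, -0.46 and -0.36 in PGC-1αf/f and at -0.25, -0.60, -1.12, -0.81 and -0.53 in nPGC-1α on its brighter probe. The ranges overlapped almost fully (difference 0.05, SE 0.19, limma adjusted p 0.94). Its other probe was dim, at -5.87 to -5.31 and well above background on 9 of the 10 arrays, and differed by -0.06 (SE 0.13). Junb, whose product pairs with FOS proteins, stood at 2.32, 2.18, 2.09, 2.21 and 2.37 in PGC-1αf/f and at 2.42, 2.13, 1.89, 1.91 and 2.28 in nPGC-1α. The lowest values were on nPGC-1α replicates 3 and 4, and control array 1 lay within the range of the others (difference -0.11, SE 0.12, limma adjusted p 0.74). The dim Junb probe, at -5.81 to -4.79, gave the opposite sign (0.38, SE 0.18, limma adjusted p 0.43), so the probes of Junb disagreed in direction and neither passed the threshold.

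**Figure D1:**
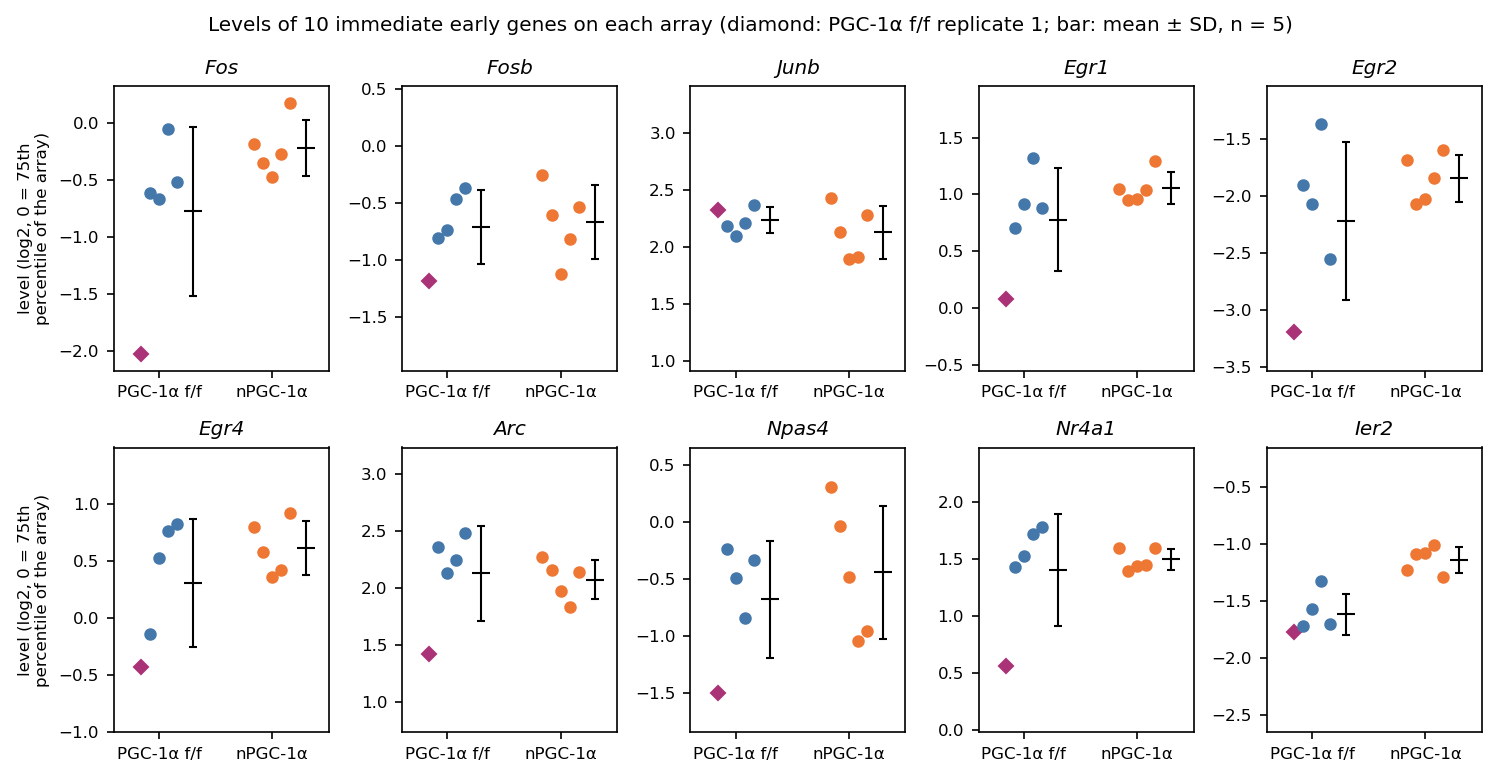
Level of each of the 10 genes on each array (log2, 0 is the 75th percentile of the array), for PGC-1αf/f (left) and nPGC-1α (right) samples, with mean ± SD (n = 5) and a window of the same height in every panel. The diamond, control array 1, was the lowest array for each gene but Junb, and only for Ier2 did the groups not overlap.

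Egr1, Egr2 and Egr4 were each lowest on control array 1, as Fos was. Egr1, a zinc finger factor required for lasting synaptic plasticity, stood at 0.08, 0.70, 0.91, 1.32 and 0.88 in PGC-1αf/f and at 1.05, 0.95, 0.96, 1.04 and 1.29 in nPGC-1α. The controls spread over both sides of the narrow nPGC-1α range (difference 0.28, SE 0.19, limma adjusted p 0.59). Egr2, which is also the factor that drives myelination in Schwann cells, stood at -3.19, -1.90, -2.07, -1.37 and -2.55 in PGC-1αf/f and at -1.68, -2.07, -2.03, -1.84 and -1.60 in nPGC-1α. Its highest and lowest values were both in controls (difference 0.37, SE 0.28, limma adjusted p 0.62). Egr4 stood at -0.43, -0.14, 0.52, 0.76 and 0.82 in PGC-1αf/f and at 0.79, 0.57, 0.36, 0.42 and 0.92 in nPGC-1α. Control arrays 1 and 2 were the low arrays here, and the other 3 controls lay inside the nPGC-1α range (difference 0.30, SE 0.24, limma adjusted p 0.64). Without control array 1, the differences of Egr1, Egr2 and Egr4 were 0.10, 0.13 and 0.12.

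Arc and the remaining regulators did not share 1 direction. Arc stood at 1.42, 2.36, 2.13, 2.25 and 2.49 in PGC-1αf/f and at 2.27, 2.16, 1.97, 1.84 and 2.14 in nPGC-1α. The lowest and highest arrays were again both controls, and the difference of -0.05 (SE 0.19, limma adjusted p 0.92) was 0.02 with the median of each array as the scale and 0.02 with normexp and quantile normalization, so its sign was not settled. Without control array 1 it was -0.23 (95% interval -0.49 to 0.03). Npas4 stood at -1.50, -0.24, -0.49, -0.84 and -0.33 in PGC-1αf/f and at 0.30, -0.03, -0.48, -1.04 and -0.96 in nPGC-1α. Both groups were widely spread (difference 0.24, SE 0.30, limma adjusted p 0.78). Nr4a1 stood at 0.56, 1.43, 1.52, 1.72 and 1.78 in PGC-1αf/f and at 1.60, 1.40, 1.44, 1.45 and 1.60 in nPGC-1α. All arrays but control array 1 lay within 0.4 of each other, and the difference was 0.09 with that array (SE 0.20, limma adjusted p 0.88) and -0.12 without it.

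Ier2, a small nuclear protein gene induced by growth factors and activity, was the exception. It stood at -1.77, -1.72, -1.57, -1.32 and -1.70 in PGC-1αf/f and at -1.23, -1.09, -1.08, -1.01 and -1.29 in nPGC-1α. The lowest nPGC-1α array lay just above the highest control. The difference was 0.48 (SE 0.11, 95% interval 0.24 to 0.71, 1.39-fold, n = 5 and 5), with an unadjusted limma p of 0.000907 and an adjusted p of 0.14 over all probes, and all 5 nPGC-1α arrays were above the control mean. The exact two-sided permutation test gave p = 0.00794, the smallest that 5 against 5 samples allow. Without control array 1 the difference was 0.44 (95% interval 0.19 to 0.69). The unadjusted p was under 0.05 in each of the 27 alternative analyses, and the adjusted p passed 0.05 in 1 of them, that with no filter on dim probes (0.0289), where 4619 of 54980 probes passed.

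Across the 10 genes, 0 passed an adjusted p of 0.05 by limma, against 0.00255% of all 39142 probes. At an unadjusted p under 0.05, 1 gene of 10 (Ier2) was higher in nPGC-1α and 0 were lower, while 3.39% of all probes were higher and 8.52% lower. The exact Mann-Whitney test gave 0 past the adjusted threshold. With 5 against 5 samples its p cannot fall under 0.00794, which Ier2 reached with an adjusted p of 0.33. That 0 was therefore nearly fixed in advance and adds no support. Groups that did not overlap, with nPGC-1α higher, were found for 1 gene of 10 and for 0.709% of the 34000 probes with a value on every array. The difference was above 0 for 8 of 10 genes, with Junb and Arc below, against 40.8% of all probes. The median difference of the 10 genes was 0.26, and that of all tested probes was -0.04. Some marker lists also had medians above 0, at 0.29 for oligodendrocyte, 0.19 for neocortex and 0.16 for CA3 markers. At an unadjusted p under 0.05, 0 of 8, 3 of 8 and 0 of 7 of these markers were higher and 0 lower, and their part in the result was not tested. Without control array 1 the median difference was 0.07 for the 10 genes and -0.03 for all tested probes. The medians of the oligodendrocyte, neocortex and CA3 markers were then 0.18, 0.19 and 0.10. Of the 10 genes, Ier2 was still the 1 higher at an unadjusted p under 0.05 (3.04% of all probes), with 0 lower (6.72%). With control array 4 left out instead, 4 genes were higher at an unadjusted p under 0.05, while 4.70% of all probes were. The 4 were Fos (0.74), Egr1 (0.41), Egr2 (0.59) and Ier2 (0.55), and 0 passed the adjusted threshold.

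Control array 1 is also 1 of the 4 arrays with Y-linked transcripts. The mean deviation of the 10 genes was -0.77 on it and -0.05 to 0.31 on the other 3 of these arrays, while the 6 arrays that lacked the transcripts lay between -0.07 and 0.23. Apart from control array 1, the arrays with and without them overlapped. On the 6 arrays alone, which leave out control array 1, the median difference between the groups was -0.03. Of the 10 genes, 1 (Ier2) was higher there at an unadjusted p under 0.05, while 1.46% of all probes were. On the 4 arrays control array 1 is the lone control, so the median difference there, 1.00, restates its low values.

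**Figure D2:**
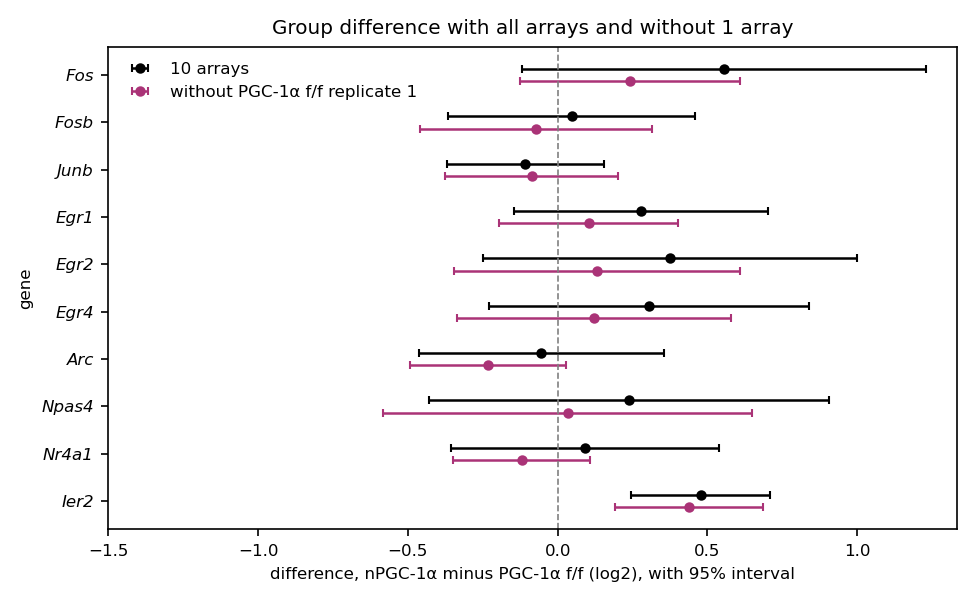
Difference between the groups (nPGC-1α minus PGC-1αf/f, log2) with its 95% interval for each gene, for all 10 arrays (black) and without control array 1 (purple). Only the intervals of Ier2 lie above 0, and for Fos, Egr1, Egr2, Egr4 and Npas4 the difference is nearer to 0 without that array.

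Control array 1 stood apart for the group as a whole. It was the lowest of the 10 arrays for 9 of the 10 genes, with Junb the exception, whereas it was the lowest for 8.51% of all probes with a value on every array. Relative to the mean of the other 4 controls it was lower by 1.56 for Fos (difference -1.56), and the values for Egr2, Nr4a1 and Npas4 were -1.22, -1.06 and -1.02. Egr4, Arc, Egr1 and Fosb followed with -0.92, -0.89, -0.87 and -0.60, and Ier2 with -0.19. Junb was 0.11 higher there. The mean deviation of the 10 genes from their own means was -0.77 on this array and -0.07 to 0.31 on the other 9. Its 75th percentile, to which its levels are scaled, was also the lowest of the 10 arrays (3883 signal units). Division by a lower value gives higher levels. The median deviation of all probes was 0.09 on this array and -0.07 to 0.07 on the other 9. The part of the scaling in the values of the 10 genes was not tested.

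The spread of the genes was set partly by that array. The residual SD of Fos within groups was 0.55, larger than that of 93.7% of all tested probes, and those of Npas4 (0.55), Egr2 (0.51) and Egr4 (0.43) exceeded 93.6%, 91.8% and 86.3%. Nr4a1, Egr1, Fosb and Arc were at 77.5%, 74.1%, 72.0% and 71.5%, while Junb and Ier2 were among the less variable probes, at 35.5% and 23.9%. Without control array 1, Fos was at 61.4%, Arc at 31.6% and Nr4a1 at 18.3%. Npas4 remained at 90.0%, Egr2 at 78.9% and Egr4 at 76.6%, so these 3 genes were spread widely among the other 9 arrays too.

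**Figure D3:**
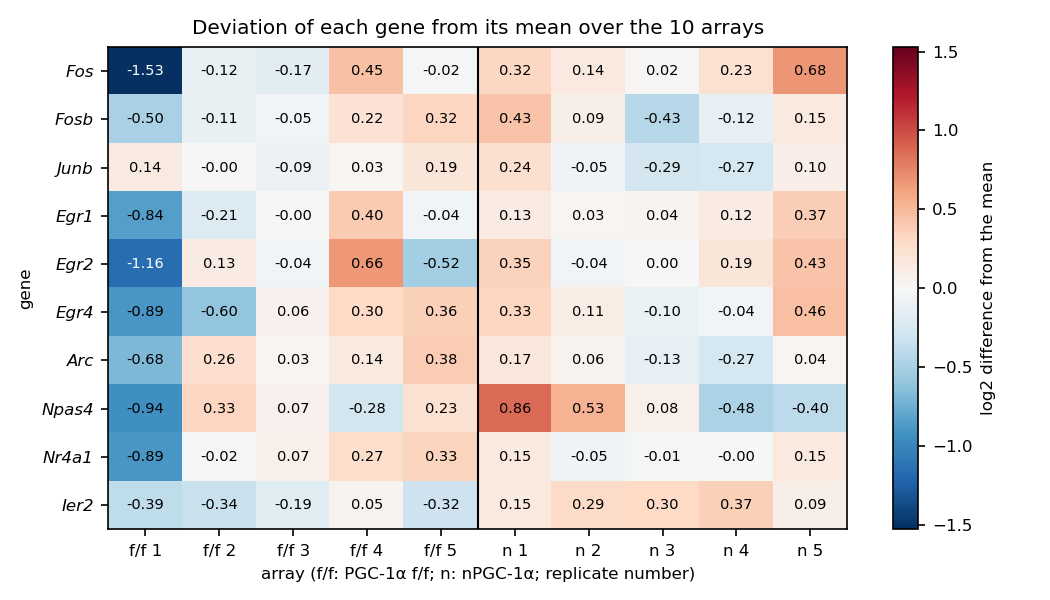
Deviation of each gene (rows) from its mean over the 10 arrays (columns), as a log2 difference. The control array 1 column is below 0 for every gene but Junb, from -1.53 for Fos to -0.39 for Ier2, and nPGC-1α replicate 1 is above 0 for all 10 genes.

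Most pairs of the genes were positively correlated from array to array. Correlations were taken over the 10 arrays on deviations from the group means, so that a group difference does not enter, for the 45 pairs of genes, and they share the same arrays and so are not independent. Of the 45 pairs, 41 had a positive Pearson r, with a median of 0.56 and a range of -0.57 to 0.97. The same counts were not computed for pairs of other genes, so whether these pairs exceed them is not known. Fos and Egr1 were the closest pair (r = 0.97, rho = 0.89, permutation p 3e-05, 0.00135 adjusted over the 45 pairs). Fos with Nr4a1 (r = 0.94, rho = 0.88), Egr1 with Nr4a1 (r = 0.90, rho = 0.90), Arc with Nr4a1 (r = 0.90, rho = 0.61) and Fos with Egr2 (r = 0.89, rho = 0.70) followed, at adjusted permutation p values of 0.0112, 0.0141, 0.0141 and 0.0141. In all, 15 pairs had an adjusted p under 0.05 by Pearson r and 6 by Spearman rho, and Junb and Ier2 were in 0 of the 15.

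These correlations rested largely on 1 array. Without control array 1, 33 of 45 pairs were positive, the median r was 0.37 and 3 pairs had an adjusted p under 0.05 in the exact permutation test over 9 arrays. They were Fosb with Junb (r = 0.91), Egr4 with Nr4a1 (r = 0.89) and Junb with Arc (r = 0.88), each at an adjusted p of 0.034. Fos and Egr1 had r = 0.91 there, at an adjusted p of 0.0504. Fos with Nr4a1 stood at 0.65, Egr1 with Nr4a1 at 0.64, Fos with Egr2 at 0.72, and Arc with Nr4a1 at 0.44. Without the 2 arrays farthest from the median of the gene named before the other, r was 0.82 for Fos with Egr1, 0.69 for Fos with Nr4a1, 0.62 for Egr1 with Nr4a1, 0.59 for Arc with Nr4a1, 0.43 for Fos with Egr2 and 0.93 for Egr4 with Nr4a1, and 0 of the 45 pairs had an adjusted p under 0.05. On the 8 arrays of the first slide, which hold replicates 1 to 4 of both groups, 39 pairs were positive with a median r of 0.67. The second slide holds replicate 5 of each group, too few samples for a value.

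**Figure D4:**
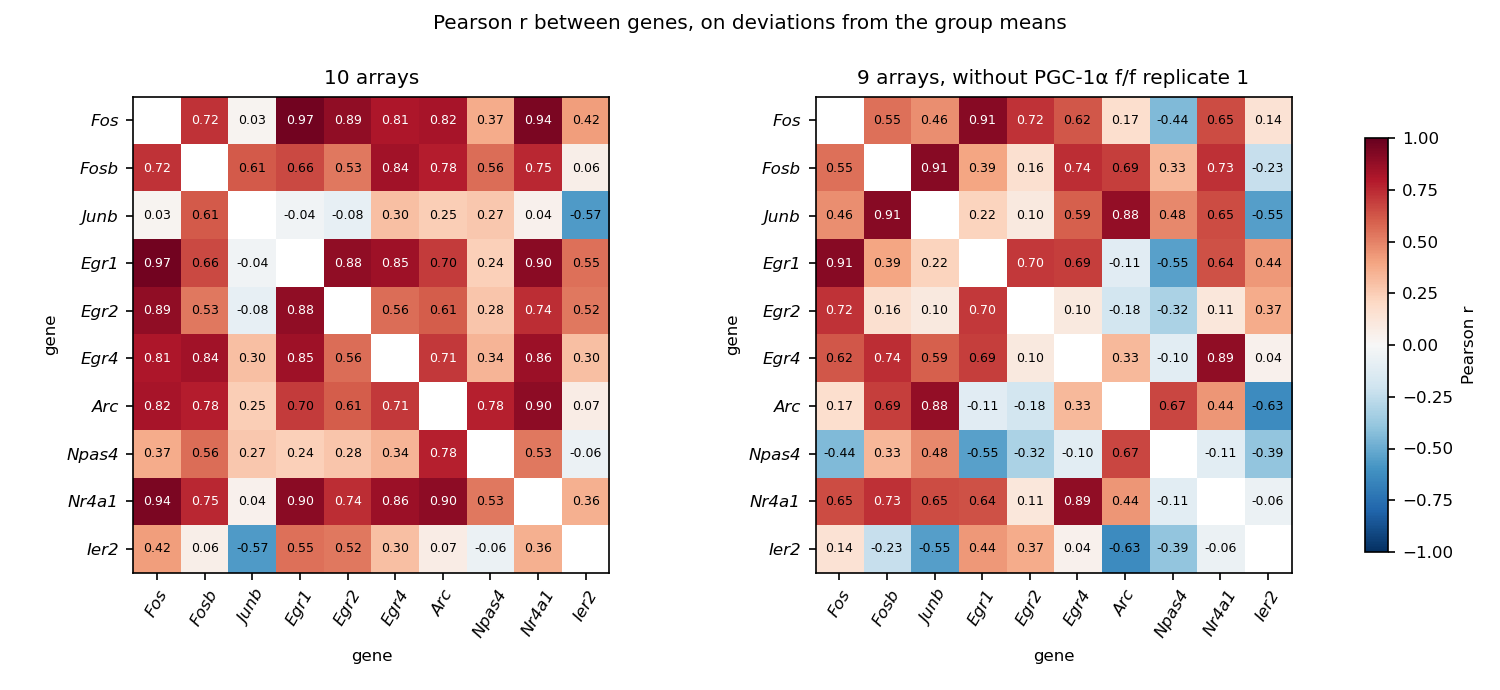
Pearson r between the deviations from the group means of each pair of genes, over all 10 arrays (left) and over the 9 arrays without control array 1 (right). Fos, Egr1 and Nr4a1 form the block of highest r on the left, and on the right Fosb, Junb and Arc have r of 0.69 to 0.91 with each other while Npas4 is below 0 with Fos and Egr1 (-0.44 and -0.55).

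Within the group, Junb had a median r of 0.04 with the other 9 genes over all arrays and 0.48 without control array 1. Ier2, the gene with the clearest group difference, had a median r of 0.30 with the others and -0.06 without that array. Npas4 had 0.34 and -0.11. Fos (0.81 and 0.55), Nr4a1 (0.75 and 0.64), Egr4 (0.71 and 0.59) and Fosb (0.66 and 0.55) kept a positive median in both.

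Of 14885 other genes with a value on every array, those most like the mean deviation of the 10 genes over the 10 arrays were Fam216a (r = 0.97), Gstm6, a glutathione transferase gene (0.96), Tspan5, a tetraspanin gene (0.95), C2cd4b (0.95), Rgs14 (0.94), Lingo3 (0.94), Daglb, which encodes a diacylglycerol lipase (0.94), Il16 (0.94), Per1 (0.94) and Rgs8 (0.94). Rgs14 and Rgs8 encode regulators of G protein signalling, and Il16 is also 1 of the 8 dentate gyrus markers examined. The ranking was made over all arrays, and each of the 10 was lowest on control array 1, for example Fam216a at 1.46 against 1.99 to 2.21 elsewhere and Rgs14 at 1.38 against 1.78 to 2.13. Without it, r was highest for Tspan5 (0.96) and Fam216a (0.89) and lowest for Rgs8 (0.70). Per1, a clock gene that is itself inducible by CREB, was the closest of the other inducible genes over the 10 arrays, and without that array its r was 0.81, below those of Penk (0.88), Klf2 (0.87) and Egr3 (0.84). These r values are a description, since the genes were ranked by them.

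Other inducible genes were described from lists by role. Of 17 tested transcription factors outside the 10 genes, 2 were higher in nPGC-1α at an unadjusted p under 0.05 and 0 lower. Of all probes, 3.39% were higher and 8.52% lower by the same rule. The median difference of the 17 was 0.07 (-0.04 for all probes). Maff, a small MAF protein gene, was dim, at -4.53 to -4.08 in PGC-1αf/f and -4.40 to -3.16 in nPGC-1α (difference 0.53, SE 0.20, limma adjusted p 0.35). Egr3, the remaining EGR gene, lay at 0.75 to 1.26 and 1.09 to 1.60 (difference 0.30, SE 0.13, limma adjusted p 0.40), and control array 1 was not low for it (1.08). Jun, the main partner of FOS, differed by -0.20 (SE 0.12, limma adjusted p 0.52).

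Inhibitors and signalling regulators, which include the phosphatases and kinases that restrain the response, had a median difference of 0.17. Of 18 tested genes, 4 were higher and 1 lower at an unadjusted p under 0.05 (3.39% and 8.52% of all probes). Plk3, a polo-like kinase gene, lay at -2.06 to -1.76 in PGC-1αf/f and at -1.70 to -1.26 in nPGC-1α without overlap (difference 0.36, SE 0.11, limma adjusted p 0.25). Tiparp, an ADP-ribosyltransferase gene, differed by -0.35 (SE 0.12, limma adjusted p 0.30). Btg2, an antiproliferative gene, differed by 0.39 (SE 0.13, n = 4 and 4 after spots marked as outliers were left out, limma adjusted p 0.31) on 1 probe and by 0.06 on the other. Zfp36 (0.40) and Sik1 (0.42), named after their values were seen, completed the 4.

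Synaptic and secreted effectors had a median difference of 0.05. Of 10 tested genes, 1 was higher and 0 lower at an unadjusted p under 0.05 (3.39% and 8.52% of all probes). It was Ccn1, a secreted matrix protein gene (difference 0.48, SE 0.16, limma adjusted p 0.29). Nptx2, a pentraxin that clusters AMPA receptors, was at -5.01 on control array 1 but between -3.63 and -2.48 on the 9 others, and its difference was 0.68 with that array (SE 0.36, limma adjusted p 0.48) and 0.31 without it. Scg2, a granin gene, differed by -0.28 (SE 0.17, n = 4 and 3, limma adjusted p 0.56). Bdnf, Nrn1, Rasgrp1 and Rheb had a probe but could not be tested. Over these 3 lists, 0 genes passed the adjusted threshold. At an unadjusted p under 0.05, 7 of 45 were higher and 1, Tiparp, was lower (3.39% and 8.52% of all probes). The higher count was 4 without nPGC-1α replicate 5 (3.84% of all probes) and 3 by the exact Mann-Whitney test (2.11%). On the 6 arrays that lacked Y-linked transcripts it was 2 of 44 (1.46%).

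Upstream receptors, kinases and factors had a median difference of 0.03. Of 22 tested genes, 1 was higher and 2 lower at an unadjusted p under 0.05 (3.39% and 8.52% of all probes). Grin2a, an NMDA receptor subunit gene, differed by -0.33 (SE 0.13, limma adjusted p 0.35), and Creb1 by -0.28 (SE 0.13, limma adjusted p 0.41). The other probe of Grin2a gave -0.19 and the other 3 of Creb1 gave -0.66 to -0.10, the same direction. Of these 22 genes, 0 were lowest on control array 1, as 8.51% of all probes with a value on every array were. Whether the list differs from that share was not tested. Of 8 heat shock genes, a separate stress-inducible group, 0 were higher or lower at an unadjusted p under 0.05, and their median was 0.02.

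Some lists of region and cell type markers were also low on control array 1, and others were not. Endothelial, striatum, microglia, neocortex and thalamus markers had median deviations of 0.17, 0.15, 0.11, 0.03 and -0.04 there. Oligodendrocyte markers had a median deviation of -0.60 there (-0.23 to 0.37 elsewhere), and astrocyte markers 0.33 (-0.11 to 0.12 elsewhere). Medians for dentate gyrus, CA1 and CA3 markers were -0.22, -0.24 and -0.20, and that for pyramidal neuron markers was -0.19, while inhibitory neuron markers were at 0.07. Of the 8 dentate gyrus markers, 3 were lowest on this array, as were 3 of 7 CA1 and 2 of 7 CA3 markers. Of all probes with a value on every array, 8.51% were. The oligodendrocyte and choroid plexus lists had 3 of 8 each, and the pyramidal, inhibitory and thalamus lists 1 of 8 each. The astrocyte, microglia, endothelial, neocortex and striatum lists had 0. Other subfield markers were not low there, for example the dentate gyrus markers Prox1 (-0.11) and Trpc6 (2.90), which were highest on it among the controls. Choroid plexus markers had a median of -0.67 on it and -0.91 to 2.14 on the others. The range of medians over the other 9 arrays was -0.13 to 0.27 for dentate gyrus, -0.19 to 0.16 for CA1 and -0.15 to 0.20 for CA3 markers. Of the other inducible lists, the effectors had a median of -0.38 on this array, the inhibitors -0.20 and the transcription factors -0.02. The part of tissue composition in the low values was not tested.

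**Figure D5:**
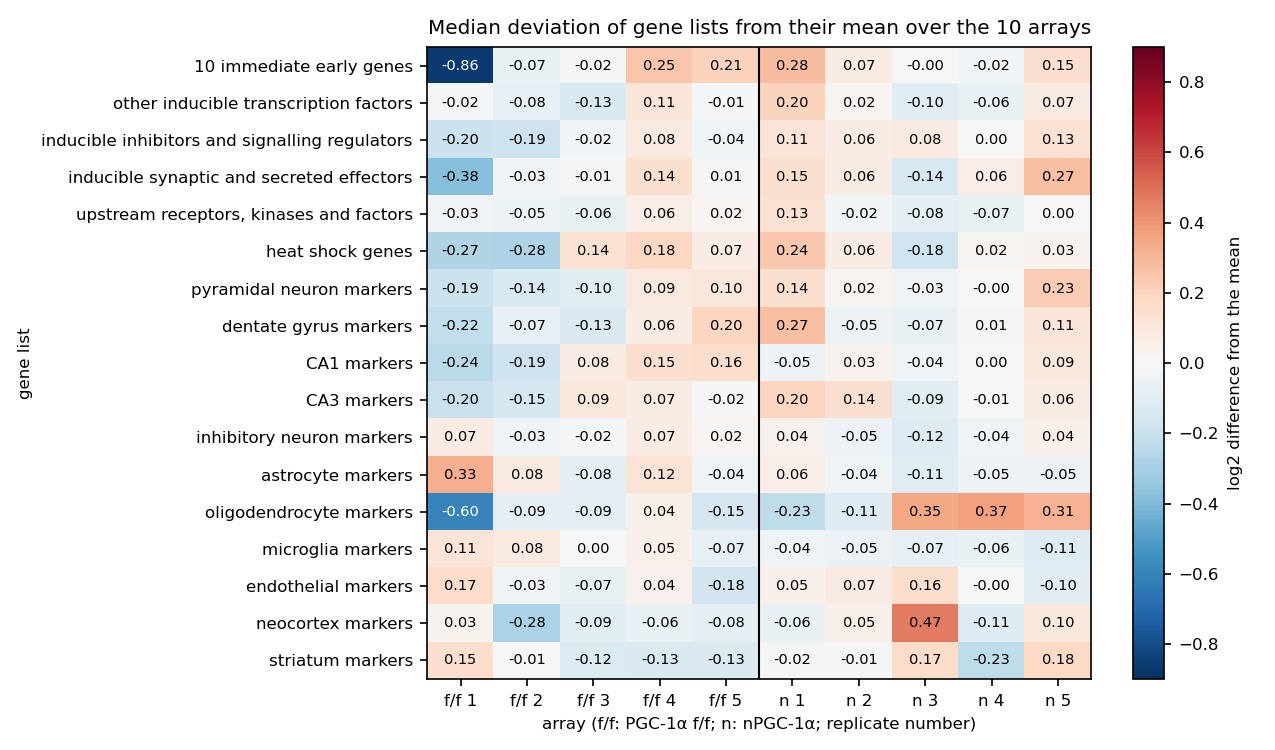
Median deviation of 17 gene lists (rows) from their own means over the 10 arrays (columns), as a log2 difference; choroid plexus and thalamus markers are not drawn. The 10 immediate early genes are at -0.86 on control array 1, where oligodendrocyte markers are at -0.60 and astrocyte markers at 0.33.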

How the data were processed

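Per the file headers, the authors scanned 1-colour Agilent arrays and deposited Feature Extraction 11.5.1.1 output, whose processed signal is a background-corrected intensity. The study's methods name another version of that software. The authors also deposited a table of log2 values of 41606 probes, normalized in GeneSpring, which served as an alternative. Intensities were divided by the 75th percentile of the array and taken to log2. Control and outlier spots were left out, spots of a probe were averaged, and a probe was kept if all 5 arrays of either group had it well above background and each group had 3 values or more (39142 of 56605). Probes were named through RefSeq accessions (GRCm38.p6, 33767 probes), and the brightest tested probe stood for a gene. Groups were compared by limma 3.58.1 (R 4.3.3) with Benjamini-Hochberg adjustment over all probes, two-sided. Exact permutation tests used all 252 regroupings, and correlations over 10 arrays used 100000 permutations (scipy 1.17.1). No fit dropped or imputed an array unless stated. Tested on simulated data with 200 changed probes of 39142, the fit recovered 71% of log2 changes of 1 and 95% of changes of 2. The number of arrays limits the precision.

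The members and all lists were chosen with earlier results of these data known. Named beside the members were, in each inducible or upstream list, any gene past the adjusted threshold and the 3 with the lowest p, and the 10 genes most like the members. Of the upstream list, 1 gene that this rule names is not reported here. Alternatives changed the scaling, background correction, filter, outlier spots, probe choice, block terms, weights and test, and left out each sample in turn. The analyses by presence of Y-linked transcripts and the correlations without PGC-1αf/f replicate 1 were added after the data were seen.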

Additional observations from a re-analysis of the deposited data

Results flagged for a closer look

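Nr4a1 on PGC-1αf/f replicate 1 stood at 0.56, while the 4 remaining controls lay between 1.43 and 1.78, a gap of 0.71 of the whole range of the group. It was flagged as a sample far from the others in its group. Of 36 groups of values examined in this way it was the 1 that stood apart, and chance alone flags about 1 group in 20, or 1.8 of 36.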

How the results depend on the processing

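Of the 10 genes, Ier2 kept its direction and an unadjusted p under 0.05 in all 27 alternatives, and Fos, Egr1, Egr2 and Egr4 kept their direction. With 5 arrays a group, changes well under a doubling can be missed, and dim probes are close to background. With no filter on dim probes, 1 gene passed the adjusted threshold (0 in the other alternatives), where the filter itself left more probes tested and 4619 of them passed. Quantile normalization, the median as the scale and normexp each gave 2 genes higher at an unadjusted p under 0.05. By the same rule 4.05%, 3.84% and 2.98% of all probes were higher. The class of Y-linked transcripts as a block also gave 2 (3.43%). When a sample was left out the count was 1 to 4 (2.24% to 4.97%). On the 4 arrays with Y-linked transcripts alone, PGC-1αf/f replicate 1 is the lone control, so that the difference there restates its low values. The median difference was 1.00 on those 4 arrays, -0.03 on the other 6, 0.07 to 0.32 when a sample was left out (0.07 without PGC-1αf/f replicate 1), and 0.11 to 0.38 otherwise. The count of other inducible genes was 3 by the exact Mann-Whitney test (2.11% of all probes). It was 2 on the 6 arrays without Y-linked transcripts (1.46%), and 4 to 7 when a sample was left out (2.24% to 4.97%). Pairs of genes with an adjusted p under 0.05 numbered 3 without PGC-1αf/f replicate 1, 0 without the 2 farthest arrays, and 10 to 19 in the other alternatives. Signs turned for 5 genes. Fosb was at -0.011 with array weights, -0.0082 as the mean of its probes and -0.12 on the 6 arrays, and at -0.073 to 0.16 when a sample was left out. Junb was at 0.13 as the mean of its probes. Arc was at 0.016 with the median as the scale, 0.021 with normexp, 0.019 on the first slide, 0.056 with the Y-linked class as a block, 0.71 on the 4 arrays and -0.23 to 0.035 when a sample was left out. Npas4 was at -0.063 on the 6 arrays. Nr4a1 was at -0.024 with array weights, -0.19 on the 6 arrays and -0.12 to 0.19 when a sample was left out. The causes were not tested.

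The replicate numbers were not taken to pair the samples, since the labels give them no meaning and 1 of the correlations of same-numbered deviations was under 0.1 (0.22, 0.08, 0.11, 0.18 and 0.36). All 5 were positive, samples numbered 1 to 4 share a column of the first slide, and 3 of the 5 PGC-1αf/f samples were closest to the nPGC-1α sample of their own number. With the replicate number as a block, the median difference was 0.26, with 1 gene higher at an unadjusted p under 0.05, 0 past the adjusted threshold, and 7 other inducible genes.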
